A study of Mus musculus with 18 samples.

Results

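The genes described here drive or mark the cell division cycle: the cyclins and their kinases, the proteins that license and copy DNA, the enzymes that supply nucleotides, the mitotic machinery, and 2 inhibitors of the kinases. The list holds 40 gene symbols, and 39 of them have a probe set on the main chip. Ccnb1 is the remaining symbol. Each gene is represented by the probe set with the highest mean log2 signal, out of 12393 genes with a probe set and 9637 that were tested, and all 39 were among those tested. The members were listed by name with earlier results of these data known, and the probe set of each was taken by signal level. The kinase subunits and cyclins are grouped below as G1 and G1/S (7 genes) and G2 and mitotic entry (7 genes). The other groups are replication licensing and fork (8), nucleotide supply (4), spindle, centromere and chromosome (11), and inhibitors (2).

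The samples are the oviduct, uterus and vagina of newborn ICR mice, 3 organs derived from the Müllerian duct. Pregnant females received 67 µg of diethylstilbestrol (DES, a synthetic estrogen) per kg of body weight daily from fetal day 10 to 18, or oil. Total RNA was taken on the day of birth and came from 3 litters, per the labels. Each of the 6 groups of organ and treatment has 3 arrays, but DES vagina array 1 was run on an older chip type and entered no fit, so that group has n = 2. Nothing in the labels says that arrays of a group came from separate animals or how many animals were pooled, so p-values measure the spread between these samples, which may be partly technical. Nor do the labels say whether the 3 organs came from the same litters. The main fit took all arrays as independent, so p-values of the average over the organs may be too small.

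Dividing cells build cyclin D with CDK4 in G1, then cyclin E with CDK2, and this releases E2F transcription factors that switch on genes for DNA replication. The MCM complex is the helicase loaded on origins, and PCNA is the clamp that holds the polymerases. Cyclin A and cyclin B with CDK1, helped by Aurora and Polo kinases, then carry the cell through G2 and mitosis, and most of these transcripts are made only in cycling cells. In a piece of tissue, fewer cycling cells and less RNA per cell cannot be told apart.

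Some arrays stand apart or have conflicting records. The arrays numbered 3 were scanned on a second day, and the analysis names they carry read 19 days post coitum. Those of the first scan day read day 0, and oil oviduct array 1 has no name of its own. Scan day, array number 3 and the stage in the names thus coincide and cannot be told apart, and "scan day" below stands for all of them. On these arrays 63.7% to 66.3% of probe sets were called Present (detected by the scanner software), against 52.7% to 58.6% on the first day. For oil oviduct array 1 the deposited per-array file is a copy of the one for DES oviduct array 1, so its values came from the series' value table, without calls. DES oviduct array 3 has a record that names the vagina, yet its signal for the oviduct gene Ovgp1 was 4221 and for the vaginal gene Hoxd13 4.15. Summed over 10 skeletal muscle genes, the signal was 1085 to 11144 in oil oviduct and 574 to 12360.5 in oil uterus, with 3 oil arrays (oviduct 1 and 3, uterus 3) at the high end. The same sum was 540 to 1252 in DES oviduct and 351 to 805 in DES uterus. In the vagina the order was the opposite, with 4238 to 18129.8 in oil and 19054 to 26001 in DES. Counts without these arrays are given beside the results they touch.

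The promoters of 6 genes that fell in the oviduct, the uterus or both are shown first, because replication and mitotic genes are classically read through different short elements. Sequences are from RefSeq on build GRCm38.p6, 32 of the 39 genes have an entry, and each run below is the 180 bases just before the transcription start, 5′ to 3′ on the gene's strand. Capitals mark 3 elements on either strand: the E2F element (TTTCCCGC, TTTCGCGC, TTTGCCGC or TTTGGCGC), the cell cycle homology region (TTTGAA or TTCGAA) and the CCAAT box (CCAAT). Mcm5 and Mcm7, subunits of the replication helicase, lie at chr8:75109329-75109508, plus strand and chr5:138171884-138172063, minus strand, the first of the 2 start sites listed for Mcm7. Cdk1, the mitotic kinase, lies at chr10:69352913-69353092, minus strand. Top2a, the topoisomerase that untangles chromosomes, lies at chr11:99024190-99024369, minus strand. Mki67, which coats mitotic chromosomes and is the usual marker of cycling cells, lies at chr7:135716380-135716559, minus strand. Kif11, the motor that separates the spindle poles, lies at chr19:37376202-37376381, plus strand.
Mcm5: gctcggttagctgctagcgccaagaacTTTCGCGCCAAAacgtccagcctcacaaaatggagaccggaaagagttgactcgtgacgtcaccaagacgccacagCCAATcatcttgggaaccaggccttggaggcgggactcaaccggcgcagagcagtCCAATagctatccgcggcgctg
Mcm7: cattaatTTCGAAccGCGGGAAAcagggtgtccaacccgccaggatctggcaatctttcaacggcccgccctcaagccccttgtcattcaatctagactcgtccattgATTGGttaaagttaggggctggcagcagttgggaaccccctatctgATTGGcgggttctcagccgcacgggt
Cdk1: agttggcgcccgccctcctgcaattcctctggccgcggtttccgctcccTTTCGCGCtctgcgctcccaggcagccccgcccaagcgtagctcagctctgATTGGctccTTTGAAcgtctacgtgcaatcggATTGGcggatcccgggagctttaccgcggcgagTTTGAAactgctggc
Top2a: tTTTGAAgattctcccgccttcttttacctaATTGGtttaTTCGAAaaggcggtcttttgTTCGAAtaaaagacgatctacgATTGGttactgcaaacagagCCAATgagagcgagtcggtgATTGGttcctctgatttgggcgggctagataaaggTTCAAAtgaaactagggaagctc
Mki67: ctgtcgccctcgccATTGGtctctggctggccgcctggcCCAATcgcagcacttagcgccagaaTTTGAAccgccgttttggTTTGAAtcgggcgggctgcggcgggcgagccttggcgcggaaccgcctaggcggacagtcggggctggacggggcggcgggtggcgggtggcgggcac
Kif11: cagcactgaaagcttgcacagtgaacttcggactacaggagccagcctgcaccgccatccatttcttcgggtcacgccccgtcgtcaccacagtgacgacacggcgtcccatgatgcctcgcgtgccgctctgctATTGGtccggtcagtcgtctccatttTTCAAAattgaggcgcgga

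Counted over the whole windows of 300 bases (250 before and 50 after the start), an E2F element stood in 5 of 8 windows of the licensing and fork genes (62.5%), those of Mcm3, Mcm5, Mcm6, Mcm7 and Cdc6. It stood in 0 of 4 windows of the nucleotide supply genes, in 0 of 10 of the spindle group, and in 744 of all 32851 mouse windows (2.26%). The cell cycle homology region stood in 7 of 10 spindle group windows (70%) in 4 of 5 of the G2 group (80%) and in 2 of 8 of the licensing and fork genes (25%, Mcm2 and Mcm7), against 19.2% of all windows. The CCAAT box stood in 23 of the 34 windows of measured members (67.6%), against 37.4% of all. In the printed runs, Mcm5 holds an E2F element and no homology region, Top2a, Mki67 and Kif11 hold the homology region and no E2F element, and Mcm7 and Cdk1 hold both. Neither window of Cdkn1a, the inhibitor described last, holds any of the 3. In Mcm5 the E2F letters overlap with a match on the opposite strand. A match describes letters in this window and does not show that a factor binds there.

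With DES, genes of replication and mitosis fell in the oviduct and uterus, Ccnd1, Cdk1 and Aurka fell in the vagina, and averaged over the organs the inhibitor Cdkn1a rose. Averaged over the organs, 27 of the 39 members fell and 1 rose, where over all genes tested 9.53% fell and 9.87% rose. The median log2 change of the members was -0.54, against -0.04 over all genes. Taken organ by organ, 12 members fell in the oviduct (4.09% of all genes), 17 in the uterus (4.25%) and 3 in the vagina (0.778%). No member rose in a single organ, where 5.35%, 5.61% and 1.9% of all genes rose in oviduct, uterus and vagina. The signals of the called members changed by -50.1% to -32.9% in the oviduct and by -51% to -29.5% in the uterus. The arrays of the groups did not overlap, with DES lower, for 22 members in the oviduct (14.1% of all genes), 27 in the uterus (14%), 23 in the vagina (13.9%) and 15 in all 3 organs (3.16%). All calls are by limma's moderated test on log2(signal + 32) at an adjusted p under 0.05. Some counts below are at an unadjusted p under 0.05. The share of all genes at that threshold is not given, so they are not read as results about the members. Of the other probe sets of called members, 3 of 12 also passed in the oviduct, 8 of 15 in the uterus, 1 of 2 in the vagina and 17 of 22 on average.

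**Figure D1:**
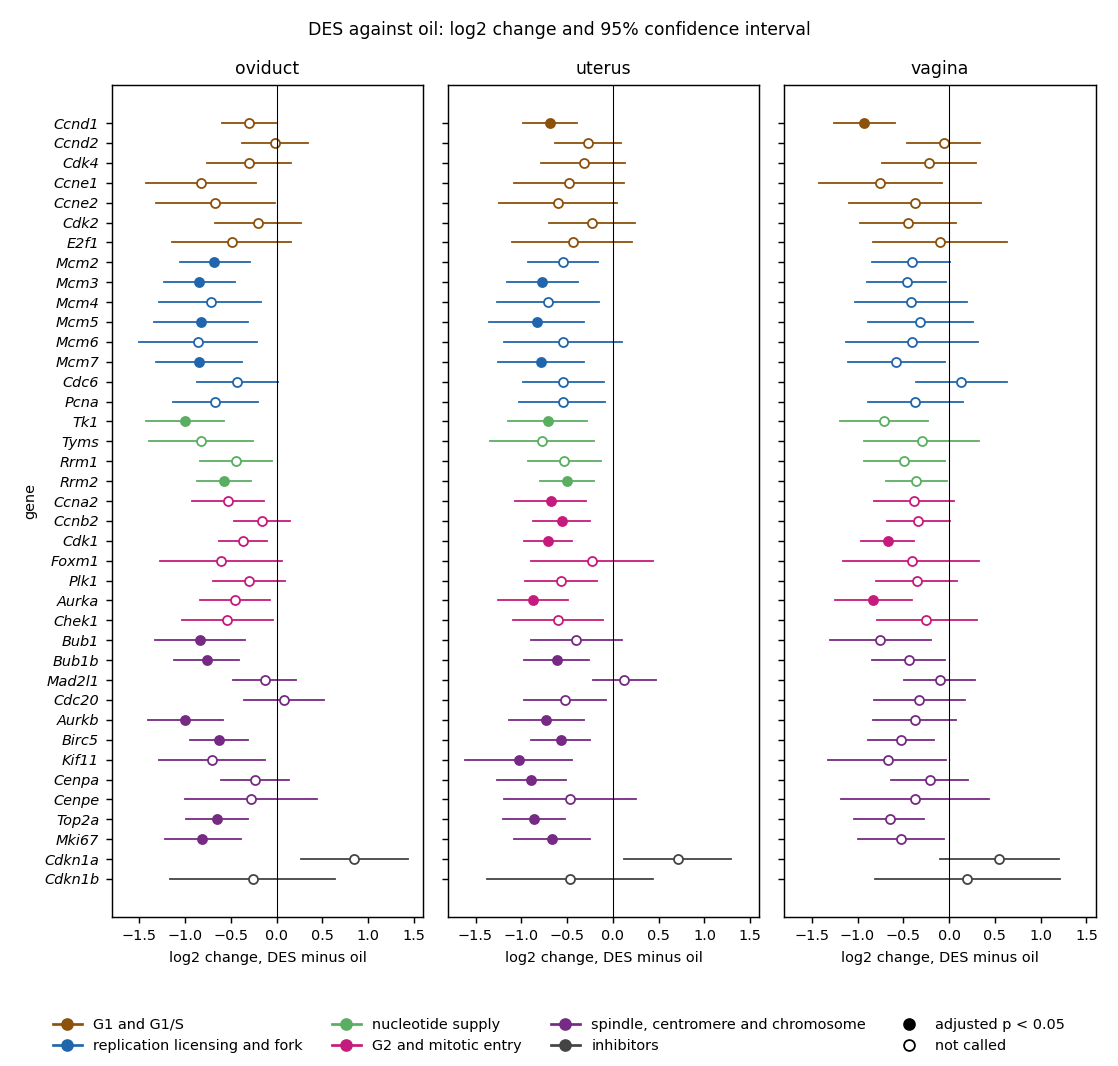
Log2 change with DES against oil (x axis, log2 units) for each of the 39 genes (y axis, coloured by role) in oviduct, uterus and vagina, as points with 95% confidence intervals. Filled points passed the test: 12 in oviduct, 17 in uterus and 3 in vagina, all to the left of 0, while Cdkn1a lies to the right in each organ.

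How many members passed depended on how the scan day, which coincides with the stage in the analysis names, was treated. When scan day was fitted as a block, 23 members fell in the oviduct (8.79% of all genes), 27 in the uterus (8.34%), 14 in the vagina (2.43%) and 32 on average (15.7%). The 12, 17 and 3 members of the fit without the block were all among them. Cdkn1a rose in the oviduct with this block, as did 9.15% of all genes. Within the first scan day alone, 17 fell in the oviduct (5.28%), 24 in the uterus (6.22%), 5 in the vagina (1.57%) and 33 on average (12.3%). The direction was seen on each day apart: DES was below oil on both days for 34 of 39 members in the oviduct (40.1% of all genes), 35 in the uterus (37.8%) and 30 in the vagina (31.3%). Of the 39, 27 were lower on both days in all 3 organs, as were 12.2% of all genes.

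**Figure D2:**
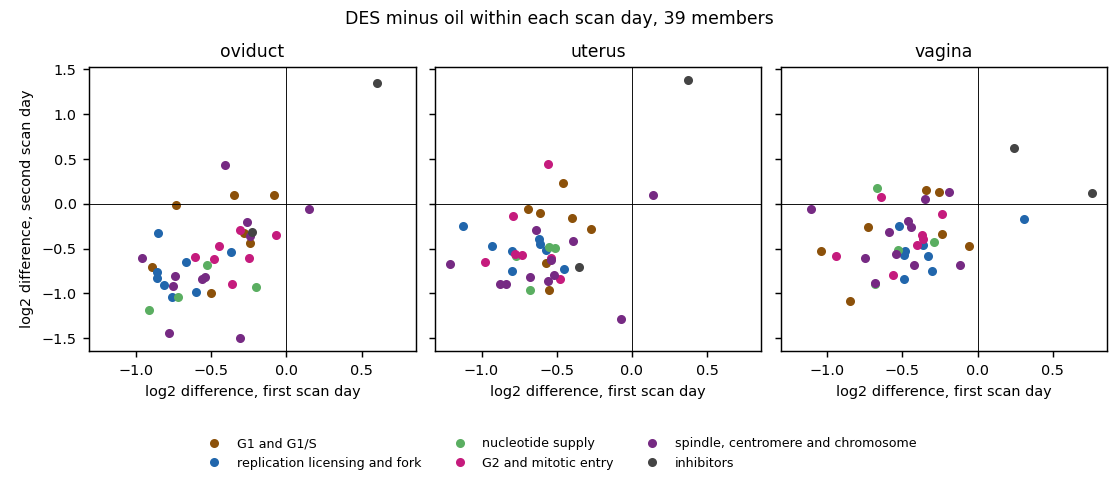
Difference between DES and oil (log2 units) within the first scan day (x axis) and within the second (y axis) for the 39 genes, coloured by role, in the 3 organs. Most points lie at the lower left, 34 in oviduct, 35 in uterus and 30 in vagina, and Cdkn1a lies at the upper right of each panel.

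Leaving out arrays lowered the counts in single organs. The oviduct count was 10 without the 2 arrays with conflicting records, 7 without DES array 1 or DES array 2, 5 without oil array 3, and 0 without the oil arrays rich in skeletal muscle transcripts, which leaves 1 oil oviduct array. Limma called 12 of the 39 at an unadjusted p under 0.05 in that last fit, with a median log2 change of -0.50. The uterus count was 5 without DES array 1, without DES array 2 or without oil array 3, and 7 without oil array 1. The 3 calls in the vagina became 1 without either DES array. On average over the organs, 20 members still fell without the muscle-rich arrays (median -0.51), 26 without the arrays with conflicting records, and 24 to 28 without each single array in turn. Shares of all genes are not given for these reduced fits, so their counts show only how the calls depend on the arrays used. The part of skeletal muscle RNA in the oviduct and uterus results was not tested.

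**Figure D3:**
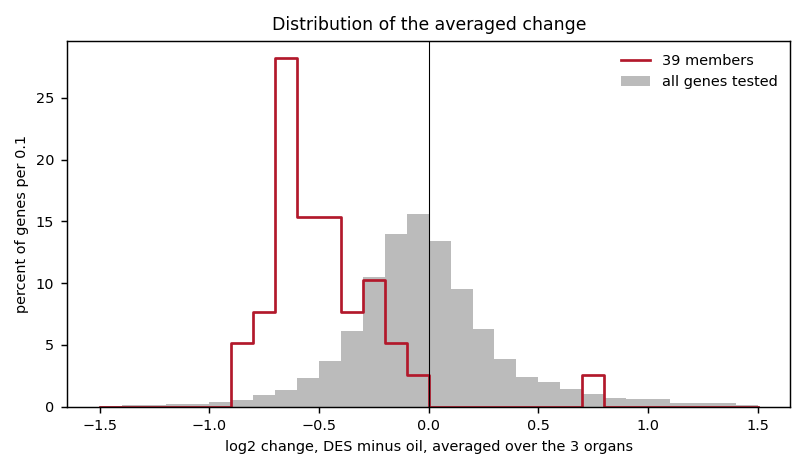
Distribution of the log2 change with DES averaged over the 3 organs (x axis, log2 units), as the percent of genes in each step of 0.1 (y axis), for all 9637 genes tested (grey bars, 1.23% lie outside the range) and for the 39 members (red line). The members centre on -0.54 and all genes on -0.04, and the member on the far right is Cdkn1a at 0.70.

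Mki67, the marker of cycling cells, fell in oviduct and uterus. In the oviduct its scaled signal was 2631, 2043 and 3254 on the oil arrays and 1226, 1514 and 1707 on the DES arrays. In the uterus it was 2819.5, 2871 and 4319.9 on the oil arrays and 1649, 2227 and 2359 on the DES arrays. In the vagina it was 3345, 2858 and 3378 on the oil arrays and 2122 and 2278 on the DES arrays. The groups did not overlap in any organ, and the gap in signal was narrowest in the oviduct. Its log2 change was -0.81 ± 0.20 (SE, adjusted p = 0.0156) in the oviduct and -0.66 ± 0.20 (SE, adjusted p = 0.0456) in the uterus. In the vagina the value was -0.53 ± 0.22 (SE, adjusted p = 0.333) and did not pass. The oviduct call was lost in 3 fits without an array and the uterine call in 5. The vaginal change passed when scan day was a block (adjusted p = 0.032, limma).

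Top2a also fell in oviduct and uterus. Its signal in the oviduct was 2343, 2342 and 3092 on the oil arrays and 1348, 1858 and 1714 on the DES arrays. The uterine arrays gave 3354, 2879 and 3919.7 on the oil arrays and 1632, 1817 and 2087 on the DES arrays. Those of the vagina gave 2943, 2509.7 and 3005 on the oil arrays and 1604 and 1965 on the DES arrays. Each oil array was above each DES array of its organ. On the log2 scale Top2a changed by -0.65 ± 0.16 (SE, adjusted p = 0.0187) in the oviduct and -0.86 ± 0.16 (SE, adjusted p = 0.00229) in the uterus, and its value in the vagina, -0.65 ± 0.18 (SE, adjusted p = 0.0872), passed only when scan day was a block (adjusted p = 0.00297). The uterine call held without any array left out in turn, with adjusted p up to 0.0173, and the oviduct call was lost in 2 such fits.

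**Figure D4:**
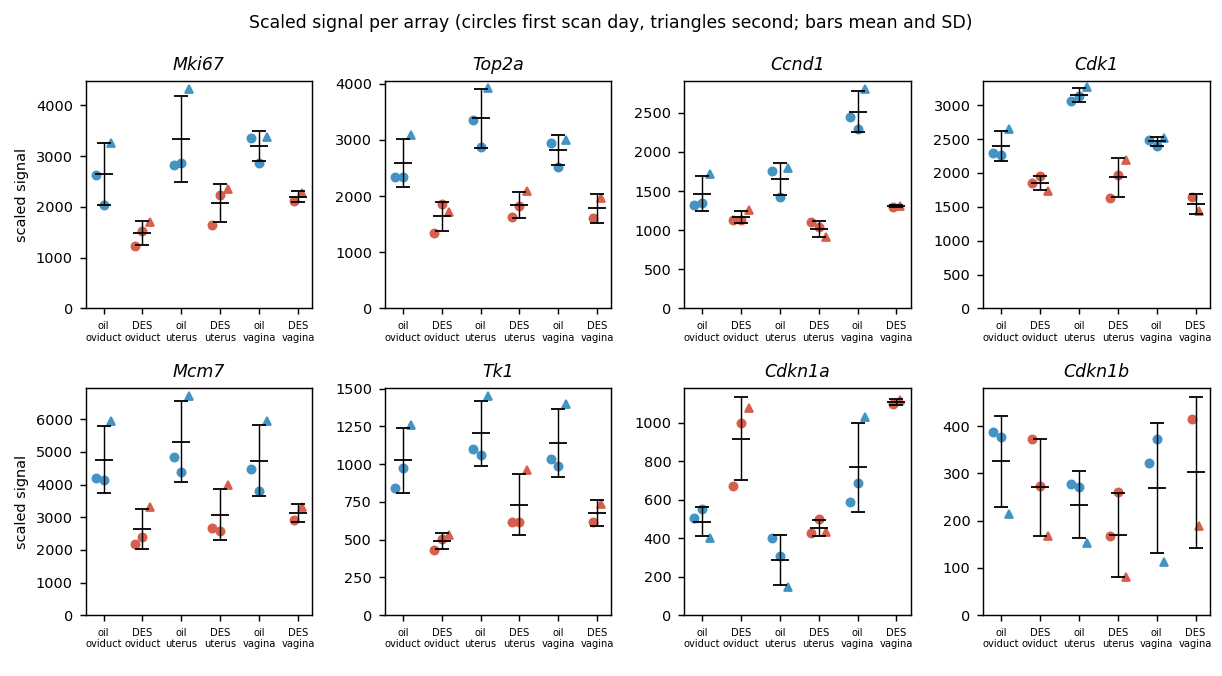
Scaled signal (y axis, linear, from 0) of 8 genes on each array of the 6 groups (x axis), with circles for the first scan day, triangles for the second, blue for oil and red for DES, and bars for the group mean and SD. Mki67, Top2a, Cdk1, Mcm7 and Tk1 are lower on each DES array than on each oil array of the same organ, Cdkn1a is higher, and Cdkn1b overlaps.

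The group of replication licensing and fork genes had the lowest median in the oviduct, -0.78, and medians of -0.63 in the uterus and -0.41 in the vagina. Of its 8 genes, 4 passed as lower in oviduct, 3 in uterus and 0 in vagina (2 at an unadjusted p under 0.05, limma), and 7 on average over the organs. Mcm3, Mcm5 and Mcm7, subunits of the helicase that unwinds DNA, fell in both the oviduct and the uterus. Mcm7 read 4208, 4152 and 5948 on the oil arrays and 2178, 2403 and 3321 on the DES arrays in the oviduct. It read 4842, 4375 and 6729 on the oil arrays and 2661, 2586 and 3978 on the DES arrays in the uterus. DES levels were below oil levels on every array, and in both treatments the array of the second scan day was the highest. The log2 change of Mcm7 was -0.85 ± 0.22 (SE, adjusted p = 0.0233) in the oviduct and -0.79 ± 0.22 (SE, adjusted p = 0.0346) in the uterus, calls that were lost in 3 and 4 of the fits without an array.

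Mcm2, another helicase subunit, fell in the oviduct, where its signal was 853, 1051 and 937 on the oil arrays and 435, 597 and 743 on the DES arrays. In the uterus the signal was 1192, 1061 and 1184 on the oil arrays and 608, 852 and 895 on the DES arrays. In the vagina it was 1293, 1158 and 1084 on the oil arrays and 843 and 906 on the DES arrays. The groups did not overlap, but without a block the change passed in the oviduct alone: -0.68 ± 0.18 (SE, adjusted p = 0.0284), then -0.54 ± 0.18 (SE, adjusted p = 0.0793) in the uterus and -0.41 ± 0.20 (SE, adjusted p = 0.452) in the vagina. When scan day was a block, the uterine value passed too (adjusted p = 0.0256). The oviduct call was lost in 4 of the fits that leave out an array, and the other probe set of Mcm2 did not pass there (-0.55, adjusted p = 0.381, limma). Mcm3 read 1083, 1145 and 1429.8 on the oil arrays and 579, 665 and 743 on the DES arrays in the oviduct, with no overlap. It changed by -0.85 ± 0.18 (SE, adjusted p = 0.00706) in the oviduct and -0.77 ± 0.18 (SE, adjusted p = 0.0124) in the uterus. Of its 4 other probe sets, none passed in the oviduct (adjusted p = 0.753, 0.179, 0.242 and 0.137, limma), 2 passed in the uterus and 3 on average. Mcm5 read 1545, 1626 and 1748 on the oil arrays and 713, 710 and 1461 on the DES arrays in the uterus, where the DES array of the second scan day was near the oil arrays. It changed by -0.83 ± 0.25 (SE, adjusted p = 0.048) in the oviduct and by -0.83 ± 0.25 (SE, adjusted p = 0.0442) in the uterus, calls that were lost in 5 of the fits without an array.

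Pcna, the sliding clamp, had higher signals on the second scan day. In the oviduct it read 6670.0, 7226 and 11013 on the oil arrays and 4247, 4455 and 6983 on the DES arrays. The uterus gave 9448, 9468 and 11810.4 on the oil arrays and 6014, 6391 and 8665 on the DES arrays. The vagina gave 7639, 7493 and 10899 on the oil arrays and 6012 and 7274 on the DES arrays. Within each scan day DES was below oil in all 3 organs, and over both days the oviduct groups overlapped. Pcna did not pass in a single organ (-0.67 ± 0.22 (SE, adjusted p = 0.0817) in the oviduct) but fell on average (-0.53 ± 0.13 (SE, adjusted p = 0.0098)), and with the scan day as a block its adjusted p was 6.87e-05 for oviduct, 0.000425 for uterus and 0.0173 for vagina. Mcm4 (-0.62) and Mcm6 (-0.61), the remaining helicase subunits, passed on average but in no single organ, and the call for Mcm6 was lost in 7 of the fits without an array. Both passed in all 3 organs when scan day was a block, and the other probe set of Mcm6 passed in the uterus without it (-0.87, adjusted p = 0.0395). Cdc6, which loads the helicase on origins, did not pass in any comparison with DES (average -0.28, adjusted p = 0.152).

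Among the 4 nucleotide supply genes, all fell on average, and Tk1 and Rrm2 also fell in oviduct and uterus. Tk1, the thymidine kinase of the salvage pathway, read 843, 975 and 1262 on the oil arrays and 432, 507 and 534 on the DES arrays in the oviduct. In the uterus it read 1099, 1061 and 1454 on the oil arrays and 619, 617 and 963 on the DES arrays. In the vagina it read 1035, 988 and 1399 on the oil arrays and 617 and 738 on the DES arrays. The groups did not overlap, and the uterine DES array of the second day was close to the lower oil arrays. Its log2 change was -1.0 ± 0.20 (SE, adjusted p = 0.00435) in the oviduct, where Tk1 and Aurkb had the lowest values of the 39, -0.71 ± 0.20 (SE, adjusted p = 0.0388) in the uterus and -0.71 ± 0.23 (SE, adjusted p = 0.156) in the vagina. The oviduct call held without any array left out in turn (adjusted p up to 0.028).

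Rrm2, the regulated subunit of ribonucleotide reductase, fell in the same 2 organs. Its signal was 1608, 1468 and 1785 on the oil arrays and 1125, 993 and 1105 on the DES arrays in the oviduct, and in the uterus it was 1525, 1366 and 1784 on the oil arrays and 896, 1123 and 1261 on the DES arrays. The groups did not overlap in either organ. Rrm2 changed by -0.58 ± 0.14 (SE, adjusted p = 0.0163) in the oviduct and -0.50 ± 0.14 (SE, adjusted p = 0.0342) in the uterus. Its other probe sets gave -0.70 (adjusted p = 0.00799, limma) and -0.47 (adjusted p = 0.252) in the oviduct. In the uterus they gave -0.50 (adjusted p = 0.055) and -0.66 (adjusted p = 0.0807), and neither passed. Rrm1, the other subunit, changed by -0.49 ± 0.11 (SE, adjusted p = 0.00574) on average. Tyms, which makes thymidylate, was not Present on any DES array with calls and was Present on 1 oil array of each organ. With the DES level taken as an upper limit, the oil level was 1.77-fold higher in oviduct, 1.71-fold in uterus and 1.23-fold in vagina. These bounds are not firm, because the oil level was itself mostly undetected. Tyms was Present on 1 of 2 oil arrays with calls in oviduct and on 1 of 3 in uterus and in vagina. The folds are between group levels and not between arrays, and the vaginal arrays overlapped (87 to 130 with oil, 61.7 to 103 with DES). None of these 3 differences passed (adjusted p = 0.0718, 0.0908 and 0.817), and the average did (-0.63, adjusted p = 0.00995, limma). The other Tyms probe sets were Present on 0 of the 16 arrays with calls.

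The G1 and G1/S group had medians of -0.30 in oviduct, -0.44 in uterus and -0.37 in vagina. Ccnd1, cyclin D1, which links growth signals to the cycle, fell in uterus and vagina. In the oviduct it read 1323, 1348 and 1724 on the oil arrays and 1128, 1132 and 1263 on the DES arrays. In the uterus it read 1756, 1424 and 1792 on the oil arrays and 1108, 1034 and 907 on the DES arrays. In the vagina it read 2445, 2293 and 2809 on the oil arrays and 1295 and 1314 on the DES arrays. The vaginal oil arrays were the highest of all groups, and its DES arrays were just above the DES arrays of the other organs. On the log2 scale the change was -0.93 ± 0.16 (SE, adjusted p = 0.00285) in the vagina, -0.69 ± 0.14 (SE, adjusted p = 0.00418) in the uterus and -0.30 ± 0.14 (SE, adjusted p = 0.248) in the oviduct. The vaginal change held without any array left out in turn (adjusted p up to 0.0462). Of its 2 other probe sets, 1 also passed in the vagina (-0.73, adjusted p = 0.0155) and 1 did not (-0.64, adjusted p = 0.201).

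Ccnd2, cyclin D2, did not pass in any organ. Its signal was 3681, 3772 and 5140.4 on the oil arrays and 3418, 3631 and 5529 on the DES arrays in the oviduct. The uterus gave 6107, 6048 and 6508 on the oil arrays and 4813, 5301 and 5337 on the DES arrays. The vagina gave 5918, 5312 and 5733 on the oil arrays and 4690.4 and 6268 on the DES arrays. The groups overlapped in oviduct and vagina, and the log2 changes were -0.02, -0.27 and -0.06 in oviduct, uterus and vagina, with adjusted p of 0.978, 0.421 and 0.969 (limma). The 95% interval of its average change was -0.33 to 0.10. Ccne1, cyclin E1, fell on average (-0.69 ± 0.17 (SE, adjusted p = 0.00909)). Ccne2, cyclin E2, and E2f1, a transcription factor of replication genes, did not pass on average, with values of -0.55 (adjusted p = 0.0506, limma) and -0.34 (adjusted p = 0.242), and both passed when scan day was a block (adjusted p = 0.00625 and 0.0426). The kinase genes Cdk4 and Cdk2 had average values of -0.28 and -0.29 and did not pass, but Cdk4 passed when scan day was a block (adjusted p = 0.000547), and 1 of its 2 other probe sets passed without it, on average (-0.36, adjusted p = 0.003) and in the oviduct (-0.42, adjusted p = 0.0491).

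In the group of G2 and mitotic entry, 0 of 7 genes fell in the oviduct (4 at an unadjusted p under 0.05, limma), 4 in the uterus, 2 in the vagina and 6 on average. The 0 in the oviduct depends on the fit and the probe set: Ccna2, Cdk1 and Chek1 fell there when scan day was a block, and other probe sets of Ccna2 (-0.52, adjusted p = 0.0447) and Chek1 (-0.84, adjusted p = 0.0424) passed without it. Cdk1, the mitotic kinase, read 2290.2, 2257 and 2649 on the oil arrays and 1850.0, 1954 and 1740.2 on the DES arrays in the oviduct. Uterine arrays gave 3064, 3129 and 3262 on the oil arrays and 1627, 1975 and 2196 on the DES arrays. Vaginal arrays gave 2492, 2395 and 2512 on the oil arrays and 1644 and 1440.3 on the DES arrays. The oil uterus arrays were the highest of all, and every DES array was below the oil arrays of its organ. Cdk1 changed by -0.71 ± 0.12 (SE, adjusted p = 0.00108) in the uterus and -0.67 ± 0.14 (SE, adjusted p = 0.0129) in the vagina, a call lost in 2 of the fits without an array. Its value in the oviduct was -0.37 ± 0.12 (SE, adjusted p = 0.0822). The uterine call held without any array left out in turn (adjusted p up to 0.0087), also without the muscle-rich arrays (adjusted p = 0.00993).

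Aurka, a kinase of centrosomes and spindle poles, fell in the uterus and the vagina. It read 698, 719 and 609 on the oil arrays and 328, 363 and 376 on the DES arrays in the uterus. In the vagina it read 498, 671 and 429 on the oil arrays and 287 and 275 on the DES arrays. The oil and DES values were well apart in both organs. Its log2 change was -0.87 ± 0.18 (SE, adjusted p = 0.00482) in the uterus and -0.83 ± 0.20 (SE, adjusted p = 0.0402) in the vagina, where the call was lost in 4 of the fits without an array, and -0.46 ± 0.18 (SE, adjusted p = 0.159) in the oviduct. Ccna2, cyclin A2 (-0.68), and Ccnb2, cyclin B2 (-0.56), fell in the uterus too, and both fell on average. Plk1, the Polo kinase, and Chek1, a checkpoint kinase, passed on average but in no single organ (-0.41 and -0.46), and the call for Chek1 was lost in 7 of the fits without an array. Foxm1, a transcription factor of mitotic genes, was not Present on any DES oviduct array. With the DES level taken as an upper limit, its oil level there was 1.52-fold higher. This is a bound between group levels, and the arrays overlapped (282 to 522 with oil, 177 to 315 with DES). Foxm1 did not pass in any organ or on average (adjusted p = 0.156, limma), though it passed on average when scan day was a block (adjusted p = 0.0467).

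Of the 11 genes of the spindle, centromere and chromosome, 6 fell in the oviduct, 7 in the uterus, 0 in the vagina (6 at an unadjusted p under 0.05, limma) and 8 on average. Aurkb, the kinase that corrects chromosome attachment, read 611, 524 and 720 on the oil arrays and 301, 334 and 245 on the DES arrays in the oviduct. It read 617, 496 and 717 on the oil arrays and 295, 379 and 392 on the DES arrays in the uterus. The vagina gave 533, 456 and 547 on the oil arrays and 452 and 331 on the DES arrays. The gap between the groups was wide in the oviduct, and in the vagina it was small. Aurkb changed by -1.0 ± 0.19 (SE, adjusted p = 0.00272) in oviduct and -0.73 ± 0.19 (SE, adjusted p = 0.0239) in uterus, and its value in vagina was -0.37 ± 0.21 (SE, adjusted p = 0.561). Its other probe set had values of -0.33 in the oviduct and -0.92 in the uterus and passed in neither (adjusted p = 0.671 and 0.0802, limma), and it passed on average (-0.73, adjusted p = 0.0101). Birc5 (survivin), a partner of Aurkb, fell in oviduct (-0.63) and uterus (-0.57).

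Bub1 and Bub1b encode kinases of the spindle checkpoint. Bub1 read 615, 583 and 665 on the oil arrays and 260, 328 and 427 on the DES arrays in the oviduct and fell there (-0.84 ± 0.23 (SE, adjusted p = 0.0339)), a call lost in 5 of the fits without an array. The other probe set of Bub1 did not pass in the oviduct (-0.51, adjusted p = 0.569, limma). Bub1b fell in oviduct (-0.76) and uterus (-0.61). Kif11 read 538, 540 and 586 on the oil arrays and 251, 184 and 356 on the DES arrays in the uterus, and its change of -1.03 ± 0.27 (SE, adjusted p = 0.0251) passed. Its 2 other probe sets did not pass in the uterus (-0.65 and -0.60, adjusted p = 0.0673 and 0.092, limma), though both passed on average. The 95% interval of the first was -1.61 to -0.45, and the call was lost in 5 of the fits without an array.

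Cenpa, the histone H3 variant of centromeres, had a high level in the oil uterus. Its signal was 807, 960 and 658 on the oil arrays and 643, 832 and 568 on the DES arrays in the oviduct. In the uterus it was 1408, 1396 and 1213 on the oil arrays and 662, 840 and 635 on the DES arrays. The vagina gave 837, 913 and 675 on the oil arrays and 677 and 700 on the DES arrays. Oil uterus stood above every other group, and DES uterus lay in the range of the other 4 groups. The change was -0.89 ± 0.18 (SE, adjusted p = 0.00348) in the uterus, -0.24 ± 0.18 (SE, adjusted p = 0.554) in the oviduct and -0.21 ± 0.20 (SE, adjusted p = 0.805) in the vagina. Mad2l1 and Cdc20, which act against and for the anaphase-promoting complex, and Cenpe, a kinetochore motor, did not pass on average (-0.04, -0.26 and -0.38). For Mad2l1 the 95% interval of the average change, -0.25 to 0.17, lies above the members' median. Cdc20 passed when scan day was a block (adjusted p = 0.00565).

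**Figure D5:**
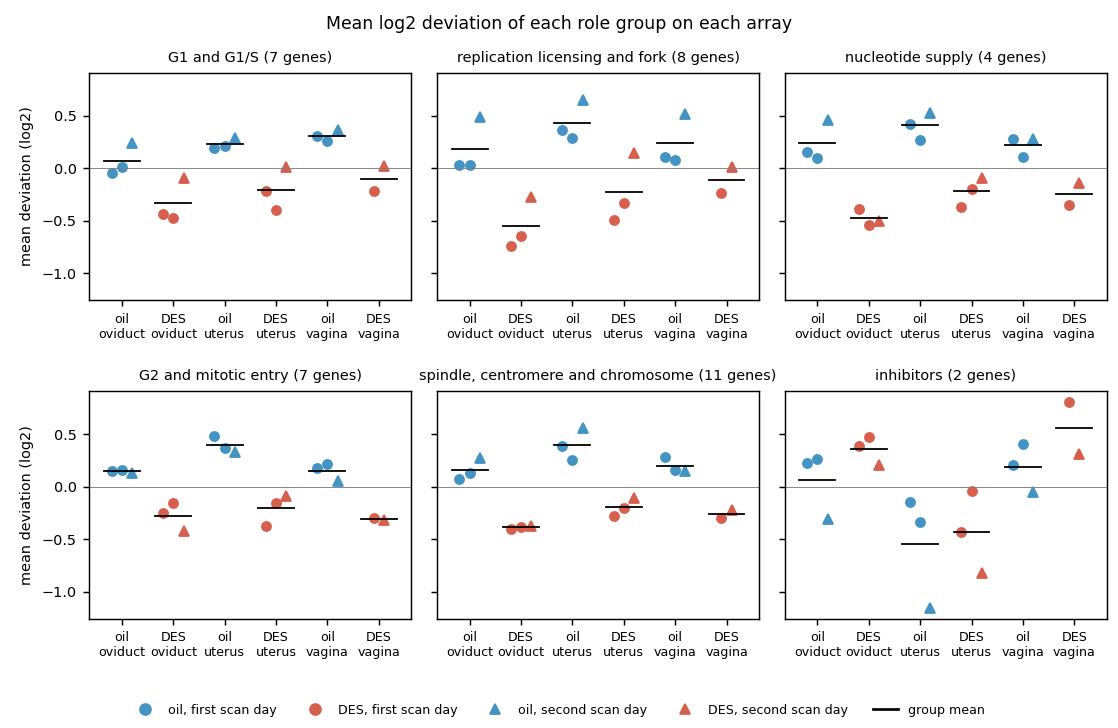
Mean log2 deviation of each role group on each array (y axis, log2 units, relative to each gene's mean over the 17 arrays) in the 6 groups (x axis), with circles for the first scan day, triangles for the second and lines for group means. Over the spindle group, oil arrays lie between 0.07 and 0.56 and DES arrays between -0.40 and -0.11, while the licensing genes are higher on the second scan day in oil and DES alike.

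Neither inhibitor gene fell. Cdkn1a encodes p21, which blocks the cyclin-dependent kinases and PCNA and is a target of p53. In the oviduct it read 506, 550 and 402 on the oil arrays and 672, 997 and 1078 on the DES arrays. In the uterus it read 402, 307 and 147 on the oil arrays and 428, 500 and 433 on the DES arrays. In the vagina it read 588, 684 and 1028 on the oil arrays and 1096 and 1119 on the DES arrays. DES values were above oil values without overlap in each organ, and among the oil groups the uterus was lowest. Cdkn1a rose on average (0.70 ± 0.17 (SE, adjusted p = 0.00635)), and the changes in oviduct (0.85 ± 0.28 (SE, adjusted p = 0.0724)), uterus (0.71 ± 0.28 (SE, adjusted p = 0.146)) and vagina (0.55 ± 0.31 (SE, adjusted p = 0.547)) did not pass alone. When scan day was a block, the oviduct rise passed (adjusted p = 0.029). The average call held without any array left out in turn (adjusted p up to 0.0208), and its other probe set had a value of 1.05 without passing (adjusted p = 0.0571, limma).

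Cdkn1b, p27, another kinase inhibitor, varied with the scan day. Oviduct arrays gave 387, 376 and 215 on the oil arrays and 372, 274 and 167 on the DES arrays. Uterine arrays gave 278, 271 and 153 on the oil arrays and 167, 260 and 81.6 on the DES arrays. Vaginal arrays gave 322, 373 and 112 on the oil arrays and 415 and 189 on the DES arrays. The array of the second scan day was the lowest in every group, and the treatments overlapped. The average change was -0.18 ± 0.26 (SE, adjusted p = 0.72) with a 95% interval of -0.72 to 0.37.

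The size of the DES effect was compared between organs gene by gene. No member passed for uterus against oviduct (1.74% of all genes passed), for vagina against uterus (0.311%) or for vagina against oviduct (1.68%). At an unadjusted p under 0.05 limma gave 1, 2 and 2 members. These counts have no share of all genes beside them and are not read as differences between organs. The intervals were wide, with a median of 0.63 to 0.67 on either side of the estimate, so smaller differences were not detectable with this number of arrays. For Cenpa, the effect in the uterus minus that in the oviduct was -0.65 (95% interval -1.18 to -0.12, adjusted p = 0.378). For Ccnd1, the effect in the vagina minus that in the oviduct was -0.62 (95% interval -1.07 to -0.18, adjusted p = 0.248, limma). For Aurkb the same difference was 0.62 (95% interval 0.02 to 1.23, adjusted p = 0.556). Its other probe set went the opposite way, with a change of -0.33 in the oviduct and -0.94 in the vagina. The 3 comparisons of DES with oil share no arrays with each other, but the labels do not say whether they share litters. Within the first scan day, Cdc20 passed for uterus against oviduct (-0.79, adjusted p = 0.0361, limma). No member passed there in the fit of all arrays, with or without the scan day block. The share of all genes is not given for the first-day fit, so this call is not read as a difference between organs.

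The oil organs were also compared with each other, to see how these genes stand along the duct at birth without DES. No member differed between oviduct and uterus (1.83% of all genes did, and limma gave 5 members at an unadjusted p under 0.05), while 5 did with the scan day as a block: Ccnd2, Cdk4, Ccna2, Cdk1 and Cenpa, all lower in the oviduct. The 1.83% belongs to the adjusted p-values of the fit without the block, so neither count of 5 can be read against it. Without the block, 3 members differed between uterus and vagina (4.52%) and 1 between oviduct and vagina (4.7%). Ccnd1 averaged 1465 ± 224 (SD, n = 3) in oviduct, 1657 ± 203 (SD, n = 3) in uterus and 2516 ± 265 (SD, n = 3) in vagina. It was lower in uterus than in vagina (-0.60 ± 0.14 (SE, adjusted p = 0.0208)) and lower in oviduct than in vagina (-0.77 ± 0.14 (SE, adjusted p = 0.00252)). Cenpa averaged 1339 ± 109 (SD, n = 3) in the uterus and 808 ± 121 (SD, n = 3) in the vagina (0.71 ± 0.18 (SE, adjusted p = 0.0303)). Cdkn1a averaged 285 ± 129 (SD, n = 3) in the uterus and 767 ± 231 (SD, n = 3) in the vagina (-1.39 ± 0.28 (SE, adjusted p = 0.00681)). These comparisons share oil arrays with each other and with those of DES.

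Further genes of the cycle were taken from lists that hold none of the 39. Their counts are read against the shares of all genes given above for each comparison. Of 26 genes of origin firing and the polymerases, 6 fell in the oviduct, 9 in the uterus, 0 in the vagina and 20 on average, and none rose (median on average -0.55). When scan day was a block the counts were 16, 16, 8 and 23. Examples are Pole, the catalytic subunit of the leading-strand polymerase, in the oviduct (-1.18 ± 0.29 (SE, adjusted p = 0.0169)), Pole2, its partner subunit, in the uterus (-1.07 ± 0.23 (SE, adjusted p = 0.00592)), and Prim1, a primase subunit, in the oviduct (-0.89). Of 35 genes of mitosis and cytokinesis, 6 fell in the oviduct, 14 in the uterus, 3 in the vagina and 23 on average (median -0.53), and 12, 22, 11 and 27 when scan day was a block. The condensin gene Ncapg and the kinesin gene Kif23, of cytokinesis, fell in oviduct (-0.80 and -0.75) and uterus (-0.84 and -0.93). The 3 that fell in the vagina were Spc25, of the NDC80 kinetochore complex (-1.42), Smc2, a core subunit of condensin (-0.93), and the kinetochore gene Cenpf (-0.65).

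Of 19 G1 regulators and genes of the E2F and RB families, 2 fell in the oviduct, 3 in the uterus, 0 in the vagina and 7 on average (median -0.28), and 5, 3, 3 and 10 when scan day was a block, where 1 also rose on average. Mycn, a transcription factor of the MYC family, fell in the uterus (-1.61 ± 0.33 (SE, adjusted p = 0.00378)), and Skp2, which targets p27 for destruction, fell in uterus (-0.98) and oviduct (-0.73). Of 13 checkpoint and repair genes, 5 fell in the oviduct, 5 in the uterus, 0 in the vagina and 9 on average (median -0.54), and 8, 6, 1 and 11 with that block. They include the recombination genes Brca1 (-0.88 in oviduct and -1.01 in uterus) and Rad54l (-0.93 and -1.0), and Wee1, which inhibits CDK1 (-0.82 and -0.94).

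The 15 genes of other inhibitors and p53 targets moved both ways, with 3 rising and 3 falling in the oviduct, 1 rising and 2 falling in the uterus, and 1 rising in the vagina (median on average -0.05). Of all genes, 5.35%, 5.61% and 1.9% rose in oviduct, uterus and vagina. With the scan day block 4 fell in the oviduct, and the other counts in single organs were equal. Gadd45a, a p53-responsive stress gene, rose in every organ. Its signal was 72.5 ± 39.8 with oil and 757 ± 157 with DES in the oviduct (SD, n = 3 in each group but DES vagina, where n = 2). In the uterus it was 52.3 ± 7.1 with oil and 215 ± 59.6 with DES, and in the vagina 58.6 ± 32.6 with oil and 259 ± 44.7 with DES. Gadd45a changed by 2.98 ± 0.33 (SE, adjusted p = 1.6e-05) in the oviduct, 1.52 ± 0.33 (SE, adjusted p = 0.00659) in the uterus and 1.74 ± 0.37 (SE, adjusted p = 0.0158) in the vagina. Cdkn2b, an inhibitor of CDK4, rose in the oviduct (1.45 ± 0.38 (SE, adjusted p = 0.0256)). Cdkn2c, another CDK4 inhibitor, fell in oviduct (-0.86) and uterus (-0.70), as did Ccng2, an atypical cyclin linked to cell cycle arrest (-0.99 and -1.29).

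Marker sums of several cell types differed between oil and DES arrays. All 9 epithelial markers were Present on every array with calls, and their summed signal was 12864 to 17098 in oil oviduct and 23739 to 28551 in DES oviduct. The sums were 14068 to 16855 and 23995 to 32199 in the uterus, and 21667 to 29611 and 30141 to 36096 in the vagina. A sum weighs its strongest genes most. Gene by gene, 5 of the 9 rose in oviduct (5.35% of all genes), 5 in uterus (5.61%) and 2 in vagina (1.9%), where 1 fell (0.778%). Their median log2 change was 0.70, 0.82 and 0.22 in these organs. The 5 ciliated cell markers were Present together only in DES oviduct (5259 to 6837, against 260 to 522 with oil, where none was Present). The 5 smooth muscle markers summed to 17364 to 18239 in oil uterus and 28894 to 39739.9 in DES uterus. The 5 germ cell markers were all Present in oil oviduct (1759.7 to 3777), whereas Sycp3, Dazl and Ddx4 were not Present on any DES oviduct array (264 to 473). Germ cell sums in the uterus were 1296 to 1418 with oil and 473 to 748 with DES. Sums over 4 neuron and Schwann cell markers were 2632 to 5193 in oil oviduct and 461 to 488 in DES oviduct, 710 to 1144 and 352 to 482 in the uterus, and 2921 to 4600.4 and 1725 to 1909.8 in the vagina. The 4 markers of stratified epithelium summed to 2196 to 8269.6 in oil vagina and 14625 to 23521 in DES vagina. In the oviduct the order was the opposite (435 to 524 and 127 to 312), and in the uterus the sums were 127 to 247 and 472 to 1169. Mesothelium markers (4) gave 4850 to 6365 and 6558 to 9240 in the uterus, and 3173 to 5764 and 8667 to 10995 in the vagina. Leukocyte markers (8) fell in the oviduct (4506 to 5330 and 3798 to 4202) and rose in the vagina (2351 to 2795 and 3280 to 3821). The 7 mesenchyme markers summed to 70655 to 80480.2 in oil and 109843 to 117813 in DES uterus, and to 74265 to 95192 and 109165 to 116459 in the vagina, while in the oviduct they overlapped (80614 to 96024 and 92825 to 104783). Gene by gene, 3 of the 7 rose and 1 fell in the uterus, and 1 rose in each other organ. Their median log2 change was 0.24 in uterus, 0.37 in vagina and 0.05 in oviduct. The part of each of these cell types in the results was not tested.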

How the data were processed

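RNA of each sample was hybridized to an Affymetrix array. Per the file headers, the deposited files hold a signal intensity on a linear scale and a detection call for each probe set, and 16 of the 17 arrays have equal intensities in the series' deposited table. How the software scaled them is not given in the sources used. Trimmed mean intensity before scaling ran from 26.5 to 143 over the 17 arrays of the main type, and the number of arrays limits the precision. Signals were scaled to a mean of 500 after trimming 2% at each end. Of 22626 probe sets without controls, 20380 carry 1 gene symbol, 691 several and 1555 none, in GEO's platform annotation. The 16702 Present on at least 2 arrays were fitted with limma 3.58.1 in R 4.3.3 on log2(signal + 32), with a mean per group, a variance trend, and Benjamini-Hochberg adjustment over these probe sets within each comparison (11 residual and 5.81 prior degrees of freedom). The procedure was run on simulated arrays with a known change in 1 organ. Those arrays were independent and had no scan day effect, so the simulation does not show how the procedure performs on arrays such as these. Where a group was called Absent on all its arrays, a fold is a lower bound, from its own signals or the lowest Present signal of each array, whichever was higher. Such a bound holds only as far as the other group was detected.

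The members and lists were chosen with earlier results of these data known. Every array is given for 11 fixed members, and otherwise for the 2 called members of largest change in each role group and organ; genes of other lists are named only if called, at most 4 per list and comparison. Arrays of the same number were checked for pairing by the correlation of their deviations from group means: the median r was 0.284 (40 pairs, lowest 0.097), 0.233 for different numbers of the same scan day (25 pairs) and -0.351 across scan days (55 pairs). The numbers were not taken as pairs, and the scan day was treated as a batch, though it cannot be told apart from the stage in the analysis names. The alternatives tried were quantile normalization, pseudocounts of 1 and 100, 2 other detection filters, the series' table, only the groups compared, no variance trend, array weights, blocks for scan day or replicate number, the first scan day alone, the more variable probe set and leaving out each array. Leaving out arrays with conflicting records or skeletal muscle transcripts, and the separate scan days as differences, were added after seeing the data.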

Additional observations from a re-analysis of the deposited data

Results flagged for a closer look

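DES vagina array 1, of the older chip type, is in none of the comparisons, and it holds a signal for these genes. Of the 37 members with a probe set on that chip, 29 were called Present there. The 8 not called Present were Ccne1, Ccne2, E2f1, Mcm6, Foxm1, Aurkb, Cenpe and Cdkn1b. No control array of that type is among the samples, so no change can be given.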

How the results depend on the processing

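The direction of all 60 calls of single members (32 within organs, 28 on average) was kept in each of 1512 repeated values, and 179 of these no longer passed. Part of this agreement was fixed in advance. The series' table repeats the same intensities. Another detection filter, no variance trend or only the groups compared leave the change of a given probe set as it was. A block for scan day or replicate number does the same in oviduct and uterus, where oil and DES share the same array numbers and scan days. In those cases only the p-values could move. The replicate numbers as a block (replicate block, paired by number) gave 23 members called in oviduct, 27 in uterus, 13 in vagina and 4, 2 for oil oviduct against oil uterus and against oil vagina, and kept every DES call of the fit without it. The scan day block gave 24, 27, 14, 5 and 2, and the first scan day alone 5 in vagina, 5 and 2 for those oil pairs, and 1 for the uterus minus oviduct effect. Only the groups compared gave 9 in uterus, 1 in vagina and 1 for oil uterus against vagina. Array weights gave 19 in oviduct, and 3 and 2 for those oil pairs. For oil oviduct against uterus, a pseudocount of 100 and the strictest filter on calls gave 1 each, and for oil uterus against vagina the more variable probe set gave 1. Without the muscle-rich arrays 0 were called in oviduct (12 at an unadjusted p under 0.05, limma) and 5 in uterus. Leaving out each array gave 5 to 13 in oviduct, 5 to 18 in uterus, 1 to 3 in vagina, 25 to 29 on average, 0 to 1, 1 to 3 and 1 for the oil pairs (oviduct and uterus, uterus and vagina, oviduct and vagina), and 0 for each difference of effects. The cause of these shifts was not tested, beyond the fewer arrays in the fits that leave some out. Shares of all genes are not given for most of these fits, so the counts are not read as results about the members. Where a group is left with 1 array, its spread is taken from the other groups. Of the 39 members, 33 were Present on all 16 arrays with calls. Tyms, Foxm1, Ccne1, Chek1, Bub1b and Cenpe were not, which limits how well their levels are measured.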

Other observations

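Averaged over the 39 genes, the deviation from each gene's own mean ran from 0.07 to 0.40 on the 9 oil arrays and from -0.41 to -0.07 on the 8 DES arrays, as a description of genes chosen with earlier results known. The organ with the highest oil arrays was the uterus (0.25 to 0.40), and the oviduct had the lowest DES arrays (-0.41 to -0.29). Across the second scan day the replication licensing genes were higher in each group, at 0.49 in oil oviduct against 0.03 on both first-day arrays, and at -0.27 in DES oviduct against -0.74 and -0.65. The G2 genes did not share that shift in the oviduct (0.13 in oil on the second day against 0.15 and 0.16).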
